A study of Mus musculus with 6 samples.

Results

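The genes described here are the mitochondrial carriers of the Slc25 family and the genes of the machinery that imports proteins into mitochondria. They were taken from the gene names in the scanner files: every name that starts with Slc25a and a number, every name that starts with Timm or Tomm and a number, and Immp1l and Immp2l. This gave 53 genes of the 27670 on the array, 32 carriers with 53 probes and 21 import genes with 40 probes. Where a gene had several probes, the one with the brightest mean over the 6 arrays stood for it.

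Expression was measured on single-dye Agilent arrays in 2 lines of mouse S49 cells, a T cell lymphoma cultured in suspension. MR 4-25 is the mannitol-recovered line (mannitol makes the medium hyperosmotic), and Neo is the parental S49 line it is set against. Both lines were grown in RPMI-1640 with fetal calf serum and were untreated when RNA was taken, so the comparison is of 2 lines at rest and not of cells under osmotic load. Each line had 3 samples with 1 array each. With 1 recovered line against 1 parental line, recovery and any other difference between the lines cannot be told apart. Separate cultures are not stated for the 3 samples of a line, and the p-values therefore cover only how these samples vary, possibly for technical reasons. In cultures measured in bulk, fewer cells of a kind and less RNA per cell cannot be told apart either.

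Slc25 carriers sit in the inner mitochondrial membrane and exchange ADP, ATP, phosphate, di- and tricarboxylates, amino acids, cofactors and metals between the cytosol and the matrix. They are made in the cytosol and reach the membrane through the TOM pore of the outer membrane, the small Tim chaperones of the intermembrane space and the TIM22 translocase, while proteins with a presequence pass through TIM23. The inner membrane peptidase, built of the Immp1l and Immp2l subunits, then cuts the sorting signals of a few proteins that face the intermembrane space.

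The results turn on Immp2l, and its dimmer probe is shown because its 60 bases lie on both sides of an intron. The array's annotation places it at chr12:39504752-39579636 of build mm7, on the plus strand, a span of 74885 bases, so the probe reads a spliced transcript. The brighter Immp2l probe lies at chr12:39831114-39831173 of the same build.
Immp2l dimmer probe: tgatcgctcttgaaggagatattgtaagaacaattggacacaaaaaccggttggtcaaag

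Carriers share a repeated signature, a proline, then any residue, then an acidic residue, then a pair of any residues, then a basic one. Codons for this signature were found in a frame without a stop in 4 of 53 carrier probes (7.55%), in 1 of 40 import probes (2.5%) and in 257 of all 41174 probes (0.624%). The following 3 carrier probes show what the array reads of the family, with the 18 signature bases in capitals. They lie at chr10:90680977-90681034 on the minus strand, chr6:94686499-94687292 on the plus strand and chr14:70449984-70450552 on the minus strand, all in build mm7.
Slc25a3: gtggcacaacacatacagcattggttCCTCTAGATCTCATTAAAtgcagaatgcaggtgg
Slc25a26: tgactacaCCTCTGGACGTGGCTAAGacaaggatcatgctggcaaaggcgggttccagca
Slc25a30: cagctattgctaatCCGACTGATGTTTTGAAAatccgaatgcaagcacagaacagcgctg

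Values are log2 signals relative to the 75th percentile of the array, so that 0 is the level of that percentile, and differences are MR 4-25 minus Neo on this log2 scale. On the array of MR 4-25 replicate 3, the 75th percentile was 521 intensity units and 61.3% of probes stood well above background, against 844 to 988 units and 69.9% to 76.3% on the other 5. Replicates 1 and 2 of both lines shared slide 1 and both replicates 3 shared slide 2, and MR 4-25 3 correlated with Neo 3 at 0.934 across genes, above its 0.891 and 0.904 with the other MR 4-25 arrays. All 9 T lymphocyte markers were well above background on every array. Their summed level was 244 to 265 times the 75th percentile in MR 4-25 and 256 to 294 times in Neo. Summed levels of the B lymphocyte, erythroid and fibroblast markers were 0.564 to 1.32 in MR 4-25 and 0.169 to 1.06 in Neo, and overlapped between lines in each list. Those of the myeloid markers did not overlap, with 1.35 to 1.61 in MR 4-25 and 1.04 to 1.13 in Neo. Of these, Lyz2, a lysozyme gene, differed by 1.06 (limma, adjusted p = 0.0553). The other myeloid markers went both ways with overlap: Csf1r and Adgre1 differed by 0.27 and 0.25, Itgam and Cd14 by -0.43 and -1.03. The part of these marker lists in the results was not tested. Of the T lymphocyte markers, Cd247, a signalling chain of the T cell receptor, fell by 4.06 (limma, adjusted p = 0.0272, and 0.139 with replicate numbers as a block).

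All 53 genes passed the filter, a signal well above background on 3 or more of the 6 arrays, and 48 of them were above background on all 6. A single member passed the test, and it rose: Immp2l, which makes 1 of 53 members (1.89%) against 1.23% of the 21341 genes tested, 0.675% higher and 0.558% lower. Among the carriers 0 of 32 passed by limma, and 6 had an unadjusted p under 0.05. Among the import genes 1 of 21 passed and 4 had an unadjusted p under 0.05. Over all members these 10 genes are 18.9%, 2 of them higher and 8 lower, against 13.3% of all genes, 5.93% higher and 7.33% lower.

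The 2 lines did not overlap for 19 of 53 members (35.8%), 7 higher and 12 lower in MR 4-25, against 24.3% of all genes, 11.2% higher and 13.1% lower. The difference was below 0 for 31 members (58.5%), against 49.4% of all genes. The median difference was -0.01 over the carriers and -0.20 over the import genes, against 0.01 over all genes. Leaving out 1 array gave -0.09 (without Neo 1) to 0.06 (without MR 4-25 1) over the carriers and -0.28 (without Neo 3) to -0.07 (without Neo 2) over the import genes, and the difference of 11 of 52 members turned its sign. On slide 1 the medians of carriers, import genes and all genes were -0.05, -0.23 and -0.02, and on slide 2 they were 0.16, -0.05 and 0.09. With normexp background correction the median of all genes was itself 0.34. Relative to it, the medians were -0.35 for the carriers and -0.71 for the import genes.

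**Figure D1:**
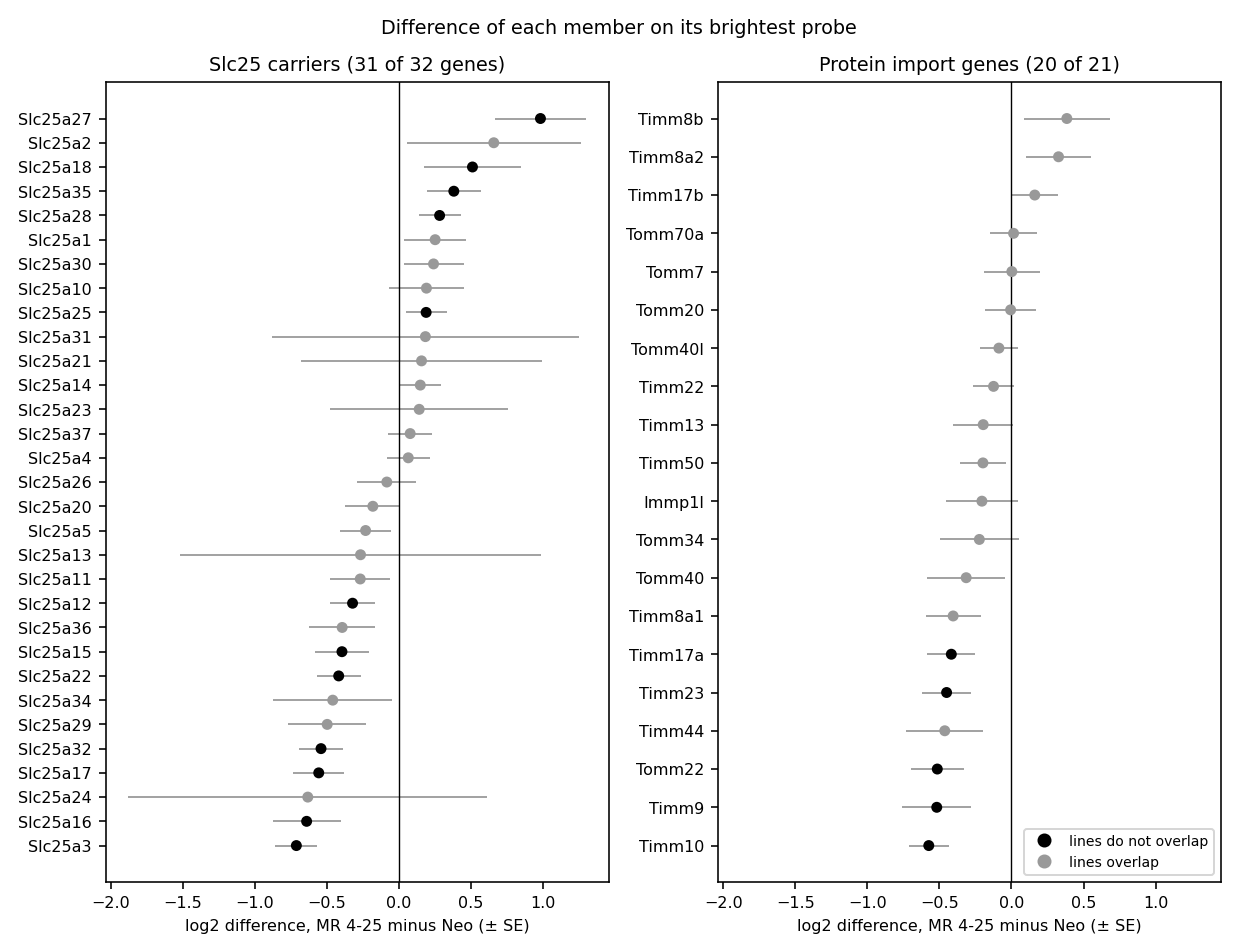
Log2 difference of each member on its brightest probe, MR 4-25 minus Neo, with the standard error from limma (n = 3 arrays a line); Slc25 carriers are on the left and import genes on the right. Black points mark the 17 members shown whose lines do not overlap, and Immp2l, at 8.86, is left out because it lies beyond the axis.

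The inner membrane peptidase gave the largest difference among the members. Immp2l, its catalytic subunit for cytochrome c1 and the mitochondrial glycerol phosphate dehydrogenase, had 1.38, 1.79 and 1.75 in MR 4-25, against -8.13, -8.12 and -5.43 in Neo. All MR 4-25 arrays lay above the 75th percentile, and of the Neo arrays only Neo 3 was well above background. The difference was 8.86 ± 0.80 (SE, n = 3 a line; limma, Benjamini-Hochberg adjusted p = 0.0163). Within slide 2, where both arrays were above background, it was 7.17. The value within slide 1, 9.71, rests on Neo signals below background, whose size is not a measured level. With Neo 1 and Neo 2 set to the lowest signal that counts as above background on their arrays, it was 7.69, or 206-fold. Immp2l entered the test through its 3 MR 4-25 arrays and Neo 3, so that its passing the filter and its difference are not independent.

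The exon-spanning Immp2l probe printed above gave a like picture. It had -1.12, -0.52 and -0.92 in MR 4-25, against -8.13, -8.12 and -8.42 in Neo. It was above background on all MR 4-25 arrays and on 0 Neo arrays (measured difference 7.37). Set against the lowest signal of any probe above background on each Neo array, MR 4-25 was 51.1-fold higher. Some probes with more signal than that did not count as above background, so neither this nor the 206-fold value is a lower bound. Both probes separated the lines without overlap, but the dimmer one passed the filter through its MR 4-25 arrays alone. Its passing the filter and its difference are therefore not independent, and the size of its Neo signals is not a measured level.

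The Immp2l call did not hold in every fit. With replicate numbers as a block, the adjusted p of limma was 0.105, and it was 0.0529 to 0.109 when Neo 1, Neo 2 or any MR 4-25 array was left out. Without Neo 3 it was 0.0104, but that fit rests on Neo 1 and Neo 2 alone, both below background. The size of their signals is not a measured level, so this value is no separate support for the call. The size depended on how signals near background were treated. With normexp background correction the difference was 4.90 relative to the median of all genes (adjusted p = 0.00415 from limma without that shift). With quantile normalization as well, the difference was 4.85 without a shift (limma, adjusted p = 0.00058).

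Immp1l, the partner subunit, had 3.54, 3.89 and 3.09 in MR 4-25, against 3.76, 3.81 and 3.57 in Neo, and the lines overlapped. Its difference was -0.21 (95% interval -0.83 to 0.42; limma, adjusted p = 0.791). The following genes were chosen after values were seen. Cyc1 and Gpd2, the known substrates, differed by 0.05 and 0.20, and neither passed the test. Lrrn3, a leucine-rich repeat gene that lies within Immp2l in the RefSeq annotation, had -4.29, -4.74 and -5.59 in MR 4-25 and -5.07, -4.62 and -5.07 in Neo. Its difference was 0.05, and the lines overlapped. The flanking genes Dock4, Zfp277, Ifrd1, Pnpla8 and Dnajb9 differed by 0.67, 0.45, 0.26, 0.60 and 2.06. All 6 neighbours had differences above 0, as did 10794 of all 21341 genes. Of the 6, 0 passed the limma test, and 1 had an unadjusted p under 0.05, against 13.3% of all genes. Zfp277 and Pnpla8 were higher in MR 4-25 without overlap, as were 11.2% of all genes. Pnpla8 had 2.93, 2.56 and 2.32 in MR 4-25, against 2.15, 1.90 and 1.96 in Neo. Dnajb9, an endoplasmic reticulum chaperone, had a standard error of 1.13 and was above background on 2 MR 4-25 arrays and 1 Neo array.

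**Figure D2:**
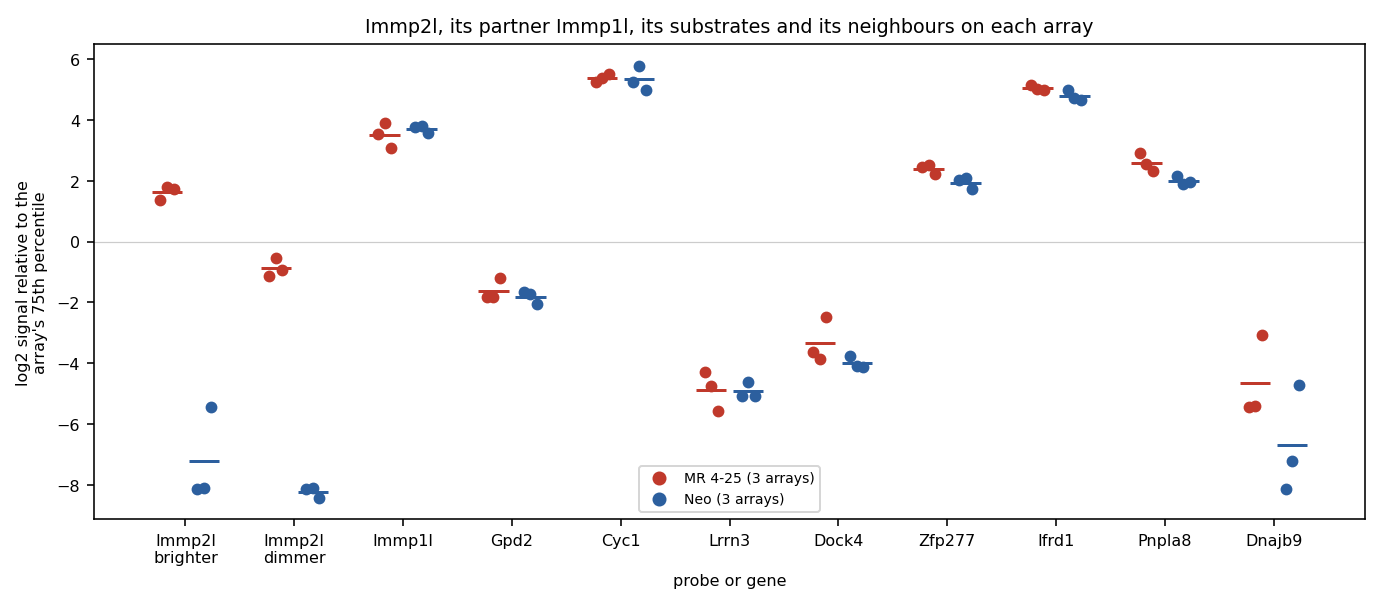
Log2 signal relative to the 75th percentile of the array, on each of 3 MR 4-25 arrays (red, left) and 3 Neo arrays (blue, right), with the line mean as a bar. Both Immp2l probes are high in MR 4-25 and near the bottom of the scale in Neo, while Immp1l, the substrates Gpd2 and Cyc1 and the neighbours Lrrn3, Dock4, Ifrd1 and Dnajb9 overlap between lines and the neighbours Zfp277 and Pnpla8 do not.

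Of the 200 bases that open the RefSeq promoter window of Immp2l (GRCm38.p6, chr12:41023840-41024039, plus strand), which runs from 250 bases before the start, a match to the ETS core CGGAAGT, read on the other strand, is in capitals.
Immp2l promoter: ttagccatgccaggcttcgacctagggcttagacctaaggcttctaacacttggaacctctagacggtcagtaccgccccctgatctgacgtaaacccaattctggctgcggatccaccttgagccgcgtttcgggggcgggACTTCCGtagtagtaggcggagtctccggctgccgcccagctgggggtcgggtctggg
RefSeq promoters of 250 bases before to 50 after the start were matched for 44 of 53 members, and 3 motifs of factors known to bind promoters of mitochondrial genes were searched on both strands. The ETS core CGGAAGT was in 8 of 44 members (18.2%), against 7.2% of 27025 promoters, and 6 of the 8 were import genes: Immp2l, Timm8a2, Timm10, Timm17a, Timm23 and Tomm70a. The NRF1 core TGCGCA was in 9 of 44 members (20.5%), against 8.79%: Slc25a3, Slc25a21, Slc25a31, Slc25a36, Timm8b, Timm13, Timm23, Tomm20 and Tomm34. Timm23 alone held both of these motifs. The core was taken after a longer form of the NRF1 motif had been counted, which was in 4 of 44 members (9.1%), against 5.19%. The YY1 motif AAGATGGC was in 3 of 44 members (6.8%), against 3.19%, in Slc25a3, Immp1l and Timm50. A match describes letters in the window and not binding. Among the members not in the table are Slc25a2, Slc25a26, Slc25a27, Slc25a32, Slc25a35, Slc25a37, Tomm7 and Tomm40l.

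Of the 6 genes of the TOM complex, 0 passed the limma test, 1 had an unadjusted p under 0.05, and the median difference was -0.05. Tomm20, the presequence receptor, had 6.0, 6.17 and 6.26 in MR 4-25, against 5.93, 6.29 and 6.24 in Neo, and the lines overlapped, at -0.01 (95% interval -0.45 to 0.43). Its dimmer probe, above background on every array, gave -0.59, with -0.63 within slide 1 and -0.52 within slide 2. On that probe the lines did not overlap, so the probes of Tomm20 differ in this. Tomm22, the central receptor, had 2.54, 2.86 and 2.99 in MR 4-25, against 3.28, 3.43 and 3.23 in Neo. Every MR 4-25 array was below every Neo array, at -0.51 (limma, adjusted p = 0.323). Tomm40, which forms the pore, differed by -0.31, and MR 4-25 2, at 2.08, was above all Neo arrays. Tomm7, a small subunit, and Tomm70a, a receptor for carriers, differed by 0.00 and 0.01, and Tomm40l, a relative of the pore protein, by -0.09. Tomm34, a cytosolic cochaperone, differed by -0.22.

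The 6 small Tim chaperones, which shield carriers on their way through the intermembrane space, had a median difference of -0.30, with 4 lower and 2 higher and 0 past the limma test (1 had an unadjusted p under 0.05). Timm10 had 3.94, 4.00 and 3.97 in MR 4-25, against 4.61, 4.59 and 4.43 in Neo. The MR 4-25 arrays were nearly equal and all below Neo, at -0.57 ± 0.14 (SE; limma, adjusted p = 0.177). Timm9, its partner in the chaperone complex, had 1.19, 1.90 and 1.72 in MR 4-25, against 2.12, 2.28 and 1.97 in Neo. The lines did not overlap, at -0.52 (limma, adjusted p = 0.456) and -0.31 without MR 4-25 1, and its other probes gave -0.80 and -1.82. Timm8a1 and Timm13, which form the alternative chaperone complex, differed by -0.40 and -0.20 with overlapping lines. Timm8b and Timm8a2 differed by 0.38 and 0.33.

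The 6 genes of the inner membrane translocases had a median difference of -0.31, with 5 lower and 1 higher, 0 past the limma test and 1 with an unadjusted p under 0.05. Timm23, the channel for presequence proteins, had 4.15, 4.55 and 4.42 in MR 4-25, against 4.76, 4.89 and 4.83 in Neo. Every MR 4-25 array was lower, at -0.45 (limma, adjusted p = 0.350). Timm17a, its channel partner, had 3.55, 3.84 and 3.70 in MR 4-25, against 4.06, 4.28 and 4.01 in Neo. The lines did not overlap, at -0.42 (limma, adjusted p = 0.380), and a further probe gave -0.64. Timm17b, the other form of that subunit, differed by 0.16 and overlapped. Timm44, which ties the matrix motor to the channel, differed by -0.46 with overlap. Timm50, the presequence receptor of TIM23, differed by -0.20, and Timm22, which inserts the carriers, by -0.12.

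**Figure D3:**
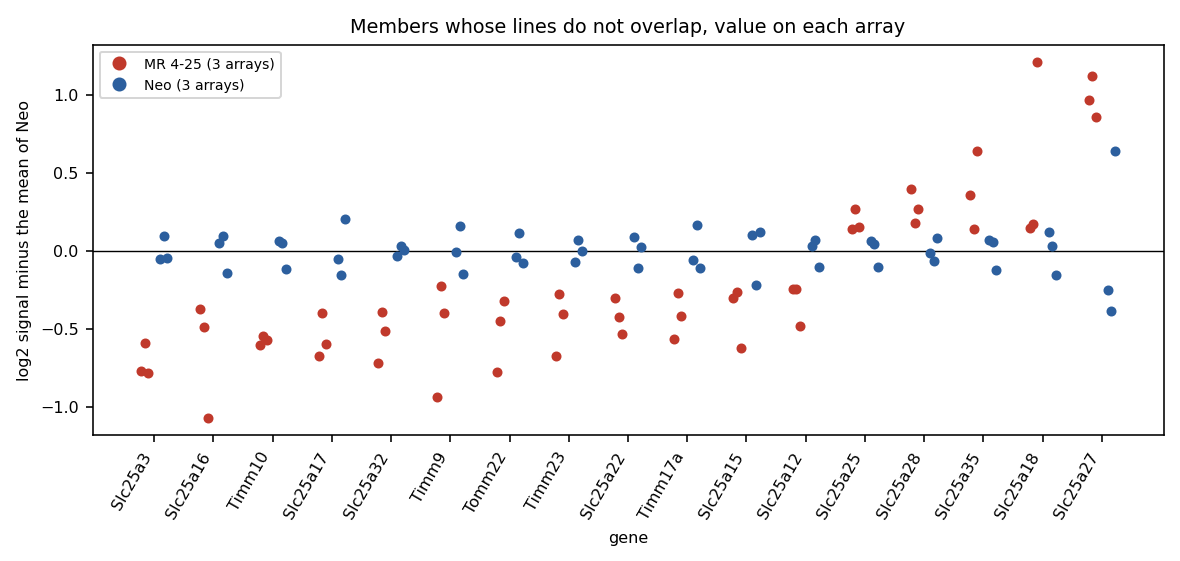
Log2 signal of each array minus the mean of Neo, for 17 members other than Immp2l whose lines do not overlap, with 3 MR 4-25 arrays (red, left) and 3 Neo arrays (blue, right). In 12 members all MR 4-25 arrays are below Neo and in 5 they are above it.

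The 7 carriers of adenine nucleotides and phosphate had a median difference of 0.06, with 0 past the limma test and 1 with an unadjusted p under 0.05. Slc25a3, which brings phosphate into the matrix for ATP synthesis, had 5.21, 5.40 and 5.20 in MR 4-25, against 5.94, 6.08 and 5.94 in Neo. All MR 4-25 arrays were below Neo, at -0.70 within slide 1 and -0.74 within slide 2. Its difference, -0.71 ± 0.15 (SE, n = 3 a line), did not pass (limma, adjusted p = 0.128), though it passed when only genes above background on all 6 arrays were tested (adjusted p = 0.0496). The 2 other Slc25a3 probes disagreed, at -1.52 and 0.35, and the higher value is that of the signature probe printed above. Which transcripts these probes read was not tested.

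Of the ADP/ATP carriers, Slc25a5 had 7.85, 7.86 and 7.68 in MR 4-25, against 7.98, 8.27 and 7.84 in Neo. Slc25a4, the form known from heart and muscle, had 6.46, 6.58 and 6.59 in MR 4-25, against 6.48, 6.62 and 6.35 in Neo. Both overlapped, at -0.23 and 0.06 (95% intervals -0.68 to 0.21 and -0.32 to 0.44). Slc25a31, a testis form, was above background on 2 arrays of each line. Of the calcium-regulated ATP-Mg/phosphate carriers, Slc25a25 had 2.23, 2.35 and 2.24 in MR 4-25, against 2.15, 2.13 and 1.98 in Neo. Its lines did not overlap, at 0.19 (limma, adjusted p = 0.672). With normexp background correction, the difference was -0.33 relative to the all-gene median, which was then 0.34. Slc25a23 differed by 0.14 with a standard error of 0.62, and Slc25a24 was above background on 1 MR 4-25 array and 2 Neo arrays.

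The 12 carriers of dicarboxylates, citrate, acylcarnitine and amino acids had a median difference of -0.23, with 7 lower and 5 higher, 0 past the limma test and 1 with an unadjusted p under 0.05. Slc25a12, the aspartate/glutamate carrier of the malate-aspartate shuttle, had 3.25, 3.25 and 3.01 in MR 4-25, against 3.53, 3.57 and 3.39 in Neo. The lines did not overlap, at -0.32 (limma, adjusted p = 0.473). Slc25a11, the oxoglutarate/malate carrier of the same shuttle, differed by -0.27 with overlap. Slc25a13, the citrin form of the aspartate/glutamate carrier, was above background on 1 MR 4-25 array and 3 Neo arrays, with a standard error of 1.25.

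Slc25a22, a glutamate carrier, had -0.24, -0.36 and -0.47 in MR 4-25, against 0.15, -0.05 and 0.09 in Neo. Every MR 4-25 array was below Neo, at -0.42 (limma, adjusted p = 0.332). Slc25a18, the other glutamate carrier, had -3.25, -3.21 and -2.18 in MR 4-25, against -3.27, -3.36 and -3.54 in Neo. It was higher without overlap, at 0.51 (limma, adjusted p = 0.621). The difference was 0.08 within slide 1 and 1.36 within slide 2, and MR 4-25 3 was the highest array. Slc25a15, the ornithine carrier of the urea cycle, had -2.68, -2.64 and -3.00 in MR 4-25, against -2.28, -2.60 and -2.26 in Neo, and did not overlap, though MR 4-25 2 lay just below Neo 2. Slc25a2, the other ornithine carrier, differed by 0.66 and Slc25a29, a carrier of basic amino acids, by -0.50, both with overlap. Without MR 4-25 3, Slc25a2 differed by 0.09 and Slc25a18 by 0.16. Slc25a1, which exports citrate, Slc25a10, the dicarboxylate carrier, and Slc25a20, which carries acylcarnitines, differed by 0.25, 0.19 and -0.18 with overlap. Slc25a21, the oxodicarboxylate carrier, was above background on 2 arrays of each line.

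The 8 carriers of cofactors, nucleotides and metals held 5 members whose lines did not overlap, 3 lower and 2 higher. Over all genes the share without overlap was 24.3%, with 13.1% lower and 11.2% higher. The median difference of the 8 carriers was -0.24, and 0 passed the limma test. Of the 8, 3 had an unadjusted p under 0.05, against 13.3% of all genes. Slc25a32, the folate and FAD carrier, had 0.36, 0.69 and 0.57 in MR 4-25, against 1.05, 1.11 and 1.08 in Neo. Every MR 4-25 array was below the nearly equal Neo arrays, at -0.54 ± 0.15 (SE; limma, adjusted p = 0.229). Slc25a17, the peroxisomal carrier of coenzyme A and other cofactors, had 2.96, 3.24 and 3.03 in MR 4-25, against 3.58, 3.48 and 3.84 in Neo. The lines did not overlap, at -0.56 (limma, adjusted p = 0.264), and its 3 probes gave -0.56, -0.52 and -0.48. Slc25a16, a carrier linked to coenzyme A, had -1.48, -1.59 and -2.17 in MR 4-25, against -1.06, -1.01 and -1.25 in Neo, and was lower at -0.64 (limma, adjusted p = 0.342).

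Of the members that were higher without overlap, Slc25a28, mitoferrin 2, had 2.95, 2.74 and 2.83 in MR 4-25, against 2.54, 2.49 and 2.64 in Neo. Its difference was 0.28 (limma, adjusted p = 0.511). With normexp correction, the difference was -0.20 relative to the all-gene median, which was then 0.34. Slc25a37, mitoferrin 1, which supplies iron in erythroid cells, differed by 0.08 with overlap. Slc25a26, the S-adenosylmethionine carrier, and Slc25a36, a pyrimidine nucleotide carrier, differed by -0.09 and -0.40 with overlap.

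The 5 relatives of the uncoupling proteins and carriers of unknown substrate had a median difference of 0.24, with 4 higher, 0 past the limma test and 1 with an unadjusted p under 0.05. Slc25a27, known as UCP4 and mainly from brain, had -1.69, -1.53 and -1.79 in MR 4-25, against -2.90, -3.04 and -2.01 in Neo. The lines did not overlap, and Neo 3 lay nearest to MR 4-25. The difference was 0.98 ± 0.32 (SE; limma, adjusted p = 0.273). Within slide 1 it was 1.36 and within slide 2 it was 0.22. The other probes of Slc25a27 gave 0.29 and 1.06, both with overlap, and within slide 2 they gave -0.66 and -1.08. Slc25a35 had -3.18, -3.40 and -2.90 in MR 4-25, against -3.47, -3.48 and -3.66 in Neo, and was higher without overlap, at 0.38 (limma, adjusted p = 0.487). Slc25a14, known as UCP5, Slc25a30, known from kidney mitochondria, and Slc25a34 differed by 0.15, 0.24 and -0.46 with overlap. Without MR 4-25 3, Slc25a34 differed by -0.01. The 3 probes of Slc25a30 all gave higher values in MR 4-25, at 0.24, 0.68 and 0.59, the last from the signature probe. The brightest, at 0.24, overlapped between lines and gave -0.19 within slide 2. For the probes at 0.68 and 0.59 the lines did not overlap.

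Probes of a gene did not always give the same direction. Of the 26 members with several probes, 22 had at least 2 above background on all 6 arrays, and in 15 of these the probes ran the same way. In the other 7 they ran both ways, and Slc25a3 had the widest spread, 1.06 between its probes at -0.71 and 0.35. The next widest of these was Timm17b, with 0.41 between -0.23 and 0.18.

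**Figure D4:**
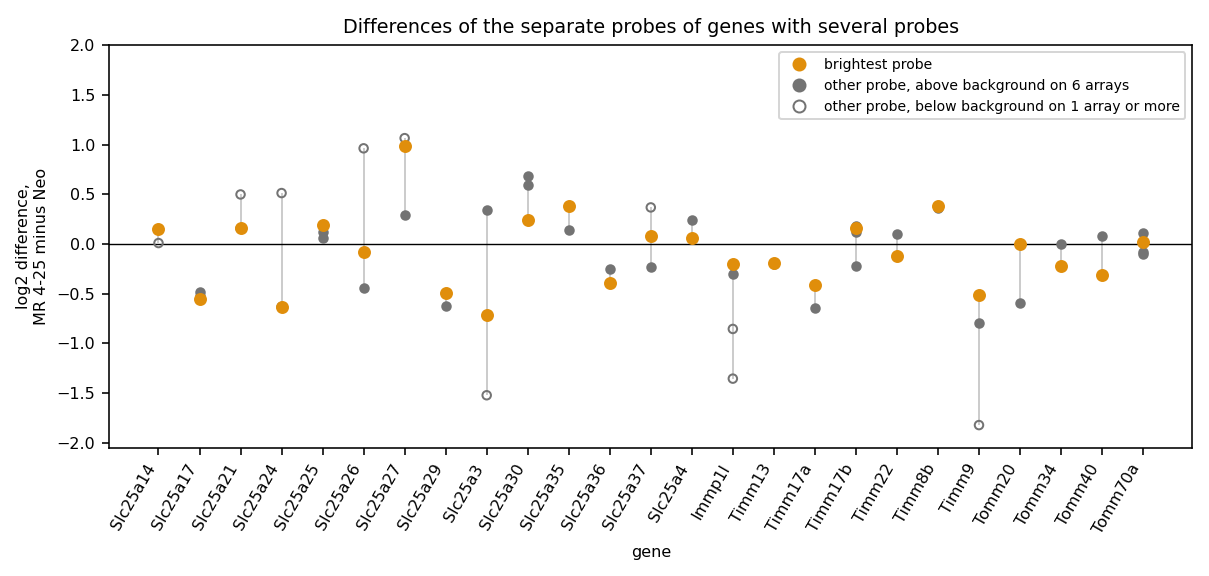
Log2 difference of each probe, MR 4-25 minus Neo, for the 25 members other than Immp2l with several probes. Orange points are the brightest probe of a gene, filled grey points other probes above background on all 6 arrays, and open points other probes that were not, such as the Slc25a3 probe at -1.52 and the Timm9 probe at -1.82; the brightest probes of Slc25a21 and Slc25a24 were also not above background on all arrays.

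Other genes of the pathway were counted from lists. Of all genes tested by limma, 1.23% passed, 13.3% had an unadjusted p under 0.05 and 49.4% had a difference below 0. Of 16 measured Slc25 relatives that the array carries under other names, 0 passed the limma test, 0 had an unadjusted p under 0.05, and the median difference was -0.08. The largest differences were those of Slc25a45, at -0.67 with a standard error of 1.41, and Slc25a41, at 0.60 with a standard error of 0.91. Ucp2, an uncoupling protein known from lymphoid tissue, was named after its value was seen and differed by -0.11. Of 6 Timm and Tomm genes under other names, 0 passed, 1 had an unadjusted p under 0.05, and the median was -0.20. Of these, Timm21, a subunit of TIM23, and Timm29, a subunit of TIM22, had the largest differences, -0.77 and -0.37 (limma, adjusted p = 0.269 and 0.421). This list was made after the data were seen.

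Of 30 other import and processing genes 0 passed by limma, 3 had an unadjusted p under 0.05, and the median was -0.01. The largest differences were those of Pitrm1, which degrades cleaved presequences, at -0.82, and the matrix cochaperonin Hspe1, at -0.71. Of 20 other genes of mitochondrial membrane transport 0 passed by limma, 5 had an unadjusted p under 0.05, and the median was -0.10. Abcb10, an inner membrane transporter, differed by -1.44 with a standard error of 1.31, and by 0.07 without MR 4-25 3. On MR 4-25 3 it was below background, at -6.97, against -2.70 to -2.37 on the other 5 arrays. Tspo, an outer membrane protein that binds cholesterol, had the largest difference in the other direction to Ppif, the matrix cyclophilin: 1.05 and -1.05 (limma, adjusted p = 0.0806 and 0.0937). Both were named after values were seen.

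Of 28 measured enzymes that act on either side of the carriers 0 passed by limma, 5 had an unadjusted p under 0.05, and the median was -0.08. Cpt1b, a carnitine palmitoyltransferase, differed by -1.07 with a standard error of 1.06, and by 0.13 without MR 4-25 3. Shmt1, a serine hydroxymethyltransferase of cytosolic folate metabolism, had 1.07, 1.42 and 1.74 in MR 4-25, against 2.50, 2.20 and 2.51 in Neo, at -0.99 (limma, adjusted p = 0.161). The folate enzymes Mthfd1 and Shmt2, cytosolic and mitochondrial, were chosen after values were seen and differed by -0.99 and -0.61 (limma, adjusted p = 0.109 and 0.152). For both, as for Slc25a32, every MR 4-25 array was below every Neo array. The folate enzymes Mthfd2 and Mthfd1l of the same list differed by -0.03 and -0.22, and their lines overlapped.

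Of 15 regulators of mitochondrial biogenesis 0 passed by limma and 5 had an unadjusted p under 0.05, against 13.3% of all genes. The regulators had a median difference of -0.48, with 11 lower and 4 higher, against 49.4% of all genes lower. The largest were those of Tfb2m, a mitochondrial transcription factor, with -0.18, -0.01 and -0.53 in MR 4-25, against 1.04, 1.18 and 0.78 in Neo, and Polrmt, the mitochondrial RNA polymerase. The lines of both did not overlap, at -1.24 and -0.75 (limma, adjusted p = 0.0834 and 0.130). Nrf1 and Gabpa, whose proteins bind the NRF1 and ETS motifs searched above, differed by 0.44 and 0.17 and were named after values were seen.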

How the data were processed

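The deposited scanner files hold Cy3 intensity values that the authors made with Agilent's Feature Extraction software (per the labels, version 9.5, and per the file headers, 9.5.3.1); its processed signal is already corrected for background. A deposited value table was identical to that signal. Probe positions are on build mm7 per the file headers.

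Each array held 43379 gene spots. Control spots and spots marked as outliers were left out, spots of a probe were averaged on the log2 scale (41174 probes, 34 of them dropped because masked on an array), and each array was centred on its own 75th percentile. The 30965 probes that stood well above background on 3 or more of the 6 arrays were kept. Over all probes, names came from the RefSeq table for 22951 by accession and 3109 by synonym, 6659 carried a current symbol, and 8455 kept another name of the file. The brightest probe stood for a gene, giving 21341 genes. The test was that of limma 3.58.1 in R 4.3.3 (lmFit and eBayes, two-sided), adjusted by Benjamini-Hochberg over all of these genes, threshold 0.05; 263 genes passed. The number of arrays limits the precision. The procedure was tested on simulated data with independent noise for each gene and array. Such data cannot show the effect of arrays that deviate together.

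The members, the lists and the tests were chosen with earlier results of these data known, so their pattern is no independent support. Values on every array are given for members past the threshold, for those without overlap and for some fixed genes. The values of 1 carrier are counted in the totals and not reported here. Of other lists, the members past the threshold and the 2 of largest difference are named. Same-numbered arrays deviated together across 21341 genes (correlations 0.291, 0.214 and 0.557), so the numbers may pair the samples, although they also follow the slides in part. The reported fit has no block, and the blocked value is given where it changes a call. Alternatives were normexp with offset 50, quantile normalization, both, median scaling, other filters, other probe rules, the value table, a trend with a robust fit, array weights, a block for slide or for replicate number, the arrays of slide 1 only, and each array left out. Promoters are from RefSeq (GRCm38.p6). Figures were drawn with Python 3.11.15 and matplotlib 3.10.9.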

Additional observations from a re-analysis of the deposited data

How the results depend on the processing

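Under the replicate block, all-gene calls by limma numbered 1, against the 263 reported, and import calls 0 (Immp2l, adjusted p = 0.105), and it changed no other call of a member. Without 1 array, all-gene calls were 0 to 223 (0 without Neo 1 or Neo 2, 36 without Neo 3, 9 without MR 4-25 1, 6 without MR 4-25 2 and 223 without MR 4-25 3), and import calls 0 to 1. All-gene calls were 80 with normexp, 504 with normexp and quantile, 524 with the filter on all 6 arrays, 401 with every probe, 718 with trend and robust, 2018 with array weights and 124 on slide 1 alone. Carrier calls were 1 with the filter on all 6 arrays, 1 with trend and robust and 3 with array weights. Import calls were 0, 2 and 2 with the same settings, and 2 with every probe, the 2 probes of Immp2l. The dimmer of these probes passed the filter through its MR 4-25 arrays alone. Calls gained were those of Slc25a3 (limma, adjusted p = 0.0496 with the filter, 0.0241 with trend and robust, 0.025 with array weights), Timm10 (0.0353 with trend and robust, 0.0185 with array weights), and, with array weights, Slc25a16 (0.0445) and Slc25a27 (0.0153). The median of all genes was 0.34 with normexp, and relative to it the carriers' median was -0.35 and the import genes' -0.71, while Slc25a25 was -0.33, Slc25a28 -0.20, Slc25a4 -0.45, Slc25a1 -0.24, Slc25a37 -0.42 and Slc25a13 0.10. Signs also turned for Slc25a4 (-0.0158 with quantile, -0.0268 on slide 1 alone), Slc25a13 (0.0352 with normexp and quantile), Slc25a37 (-0.0774 with the mean over probes, -0.0240 with array weights), and, with array weights, Tomm20 (0.0769), Tomm40 (0.0259) and Immp1l (0.0538). With 1 array left out, differences ran from -0.00283 to 0.131 for Slc25a4, -1.58 to 0.390 for Slc25a13, -0.117 to 0.0647 for Tomm20 and -0.398 to 0.00443 for Immp1l. The causes were not tested. Immp2l had 20 values under the alternatives, all above 0 (4.85 to 9.76), and no value with the filter on all 6 arrays. Of 579 values of 29 named members, 544 kept direction and side of the threshold. Signals near background, as for Slc25a13, Slc25a21, Slc25a24 and Slc25a31, limit the precision of those genes.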
